A study of Mus musculus with 15 samples.

Results

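The pentose phosphate pathway genes are described here in mouse liver: G6pdx, H6pd, Pgls, Pgd, Rpia, Tkt and Taldo1. The 7 genes were chosen as enzymes of the pathway, and each was taken with every probe set that the array annotation gives to that symbol alone. By that rule 6 of the 7 genes had probe sets, 11 in all, of 18193 genes and 45037 probe sets tested. G6pdx, the cytosolic glucose-6-phosphate dehydrogenase, was not analysed here.

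The study asked how Xiao-Ke-An (XKA), a Chinese medicine made of a mixture of herbs and used for type 2 diabetes, acted in KKAy mice, and total liver RNA was hybridised to Affymetrix whole-genome mouse arrays. The XKA group was male KKAy mice on a high-fat diet that received XKA by mouth at 1.5 g/kg once daily for 32 days, and the KKAy model group was male KKAy mice on the same diet that received distilled water. The C57BL/6J group was male C57BL/6J mice of the same age from another supplier, fed normal chow and gavaged with distilled water. Dosing began at 10 weeks of age, and each group had 5 arrays, 1 mouse each. KKAy mice carry the yellow allele of the agouti gene on the KK background, and the model and C57BL/6J groups differed in strain, diet and supplier together, which cannot be told apart here. The methods state a fed state for the killing of the mice and a fasting state for the blood taken at the end.

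The pathway takes glucose-6-phosphate from glycolysis. Its oxidative branch (glucose-6-phosphate dehydrogenase, 6-phosphogluconolactonase and 6-phosphogluconate dehydrogenase) makes NADPH and ribulose-5-phosphate, and its non-oxidative branch (the pentose isomerase and epimerase, transketolase and transaldolase) moves carbon reversibly between pentoses and glycolytic intermediates. In liver NADPH serves fatty acid and sterol synthesis and the reduction of glutathione and thioredoxin. H6pd acts apart from the others, inside the endoplasmic reticulum, where its NADPH supports the reductase activity of 11-beta-hydroxysteroid dehydrogenase 1.

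In KKAy model livers, Taldo1 and H6pd were higher than in C57BL/6J livers, by 1.78-fold and 1.45-fold. The H6pd call depended on how the arrays were scaled and on single arrays. The Taldo1 call held, but its log2 change of 0.83 was 0.64 as deposited and after quantile normalisation. Pgls, Pgd, Rpia and Tkt, each read by its brightest probe set, did not pass the test. In a fit over all probe sets, a dimmer Pgd probe set, 1423706_a_at, was called higher (1.76-fold, limma adjusted p = 0.006). A dim Tkt probe set, not shown to be above background, was called as well. No member was called in XKA livers against KKAy model livers or against C57BL/6J livers. Against KKAy model livers, the Taldo1 and Pgd estimates in XKA livers were 0.704 and 0.708 of the model level. Values are signals after each array was scaled to a median of 1000, changes are log2 differences, and a call is an adjusted p under 0.05 from limma with Benjamini-Hochberg adjustment over all genes. The p-values set a group difference against the spread between mice within groups, estimated from all 3 groups together, and the comparisons share arrays.

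The correlation of each array with the others of its group had medians between 0.928 and 0.941. XKA array 1 and model array 3 had the lowest medians. Without both of them Taldo1 was the 1 member called between model and C57BL/6J livers, as H6pd then had 0.45 (limma adjusted p = 0.0573), and no member was called in the other comparisons. Of all genes, 10.6% were then called between model and C57BL/6J livers. The shares were 0.137% between XKA and model livers and 7.18% between XKA and C57BL/6J livers.

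**Figure D1:**
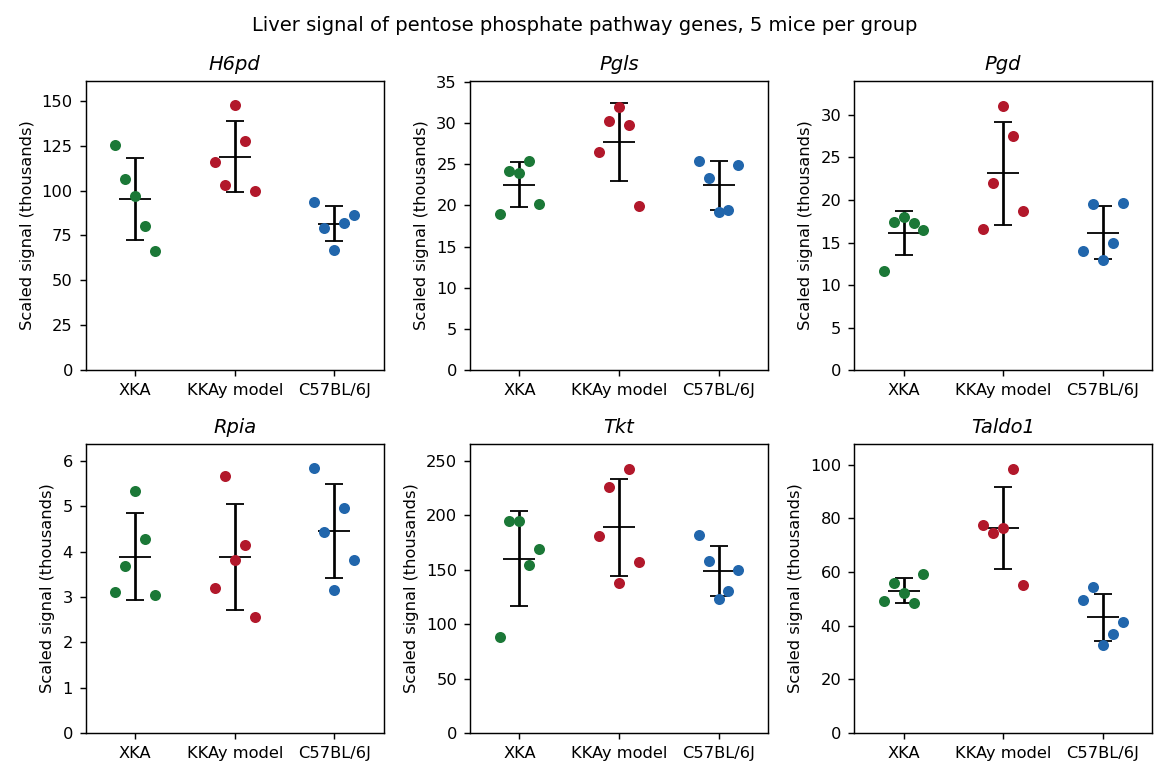
Scaled signal in units of 1000 (linear axis from 0, arrays scaled to a median of 1000) of the 6 measured members in XKA, KKAy model and C57BL/6J livers, 1 point an array with the group mean and SD (n = 5 each). The KKAy model points of Taldo1 (55119 to 98401) and of H6pd (99522 to 147784) lie above every C57BL/6J point, while the groups overlap for the other 4 genes.

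The promoters of the members are shown because the genes code for enzymes of 1 pathway and their changes differed in size. RefSeq promoter windows on GRCm38.p6, from 250 bases before to 50 bases after an annotated start, were found for the 6 measured members, 7 windows in all, with 2 for Pgd. In the sequences below, read 5′ to 3′ on the strand of the gene, capitals mark matches to any of 5 motifs searched on both strands: the antioxidant response element core TGACNNNGC, the E-box CACGTG, the sterol response element TCACNCCAC, the GC box GGGCGG and the CCAAT box CCAAT. Taldo1 and H6pd are the members called, the second Pgd window holds the antioxidant response element core, and Rpia is the member whose model estimate lay below that of C57BL/6J.
Taldo1 (chr7:141391910-141392209, plus strand): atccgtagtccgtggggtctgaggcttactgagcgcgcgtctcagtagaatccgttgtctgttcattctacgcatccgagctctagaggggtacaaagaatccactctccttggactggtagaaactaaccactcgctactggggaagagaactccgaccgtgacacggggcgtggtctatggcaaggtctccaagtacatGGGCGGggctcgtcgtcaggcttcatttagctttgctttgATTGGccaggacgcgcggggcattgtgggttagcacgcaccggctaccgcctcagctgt
H6pd (chr4:150003187-150003486, minus strand): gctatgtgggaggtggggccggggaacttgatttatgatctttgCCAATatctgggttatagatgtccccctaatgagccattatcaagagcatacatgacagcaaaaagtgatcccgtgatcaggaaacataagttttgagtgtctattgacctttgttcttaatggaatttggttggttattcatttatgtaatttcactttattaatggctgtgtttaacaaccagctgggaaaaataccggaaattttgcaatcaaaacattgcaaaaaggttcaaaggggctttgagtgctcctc
Pgd, second window (chr4:149166033-149166332, minus strand): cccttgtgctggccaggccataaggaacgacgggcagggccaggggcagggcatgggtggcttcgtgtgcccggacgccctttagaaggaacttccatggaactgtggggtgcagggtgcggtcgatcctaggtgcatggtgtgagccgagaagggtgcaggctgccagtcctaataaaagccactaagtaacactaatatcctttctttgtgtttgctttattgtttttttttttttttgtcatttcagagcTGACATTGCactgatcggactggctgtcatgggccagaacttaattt
Rpia (chr6:70792126-70792425, minus strand): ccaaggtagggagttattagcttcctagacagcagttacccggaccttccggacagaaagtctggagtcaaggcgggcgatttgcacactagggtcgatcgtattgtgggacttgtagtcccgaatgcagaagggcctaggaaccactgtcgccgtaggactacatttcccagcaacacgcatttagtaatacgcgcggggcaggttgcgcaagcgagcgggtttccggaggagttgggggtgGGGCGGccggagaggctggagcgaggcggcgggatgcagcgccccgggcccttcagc

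The Taldo1 window held a GC box at -49 to -44, counted from the start, and a CCAAT box on the minus strand at -9 to -5. The H6pd window, which belongs to a start inside the annotated span of the gene (149979474 to 150009023 of chromosome 4), held a CCAAT box at -206 to -202 and no GC box. The second Pgd start likewise lies inside the span of its gene (149149991 to 149166705 of chromosome 4). The Rpia window held a GC box at -7 to -2. GC boxes were also found in the windows of Pgls, of Tkt (5 matches, 1 pair sharing a base) and of the first Pgd window, which also held 2 CCAAT boxes. The antioxidant response element core was found in 1 of the 7 windows, at 3 to 11 bases after the second Pgd start. No window held the E-box or the sterol response element letters. Of 32851 mouse promoter windows of this length in the table, 12.4% held the antioxidant response element core, 7.15% the E-box, 1.24% the sterol response element, 35.7% the GC box and 37.4% the CCAAT box. The matches describe these windows and show no factor binding.

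H6pd codes for hexose-6-phosphate dehydrogenase, which carries out the first 2 steps of the oxidative branch inside the endoplasmic reticulum. Its probe set had scaled signals of 125544, 106519, 96931, 80215 and 66538 in XKA livers. It had 115849, 103046, 147784, 127776 and 99522 in KKAy model livers. The C57BL/6J livers had 93799, 78885, 67031, 81849 and 86577. The lowest model array lay above the highest C57BL/6J array, and the XKA arrays reached from below the lowest C57BL/6J array into the middle of the model range. The means were 95149 ± 22902 in XKA livers, 118795 ± 19680 in KKAy model livers and 81628 ± 9915 in C57BL/6J livers (SD, n = 5 each).

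The model minus C57BL/6J change of H6pd was 0.53 (SE 0.16, limma adjusted p = 0.0327). The call was lost with the values as deposited (0.34, adjusted p = 0.111) and with quantile normalisation (0.34, adjusted p = 0.106). It was also lost without single arrays, at changes of 0.45 to 0.54: without model array 1 (0.54, adjusted p = 0.0577), model array 3 (0.45, 0.0978), model array 4 (0.50, 0.0817), C57BL/6J array 2 (0.52, 0.0638), C57BL/6J array 3 (0.47, 0.0965) and C57BL/6J array 4 (0.54, 0.0633). The XKA minus model change was -0.34 (95% interval -0.68 to 0.00, adjusted p = 0.577), and against C57BL/6J it was 0.20 (-0.14 to 0.53, adjusted p = 0.583).

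Pgls codes for 6-phosphogluconolactonase, which opens the lactone made by the dehydrogenase. Its signals were 18999, 24166, 23925, 25320 and 20192 in XKA livers. They were 26510, 30262, 31909, 29737 and 19902 in KKAy model livers. They were 25393, 23295, 19137, 19456 and 24871 in C57BL/6J livers. Of the 5 model arrays, 4 lay above every array of the other groups, and model array 5 lay among them. The model minus C57BL/6J change was 0.29 (95% interval 0.01 to 0.58, limma adjusted p = 0.188). Without model array 5 it was 0.41 (adjusted p = 0.032). XKA livers differed from model livers by -0.29 (-0.57 to 0.00, adjusted p = 0.585).

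Pgd codes for 6-phosphogluconate dehydrogenase, the enzyme of the last NADPH-forming step of the branch, and it was measured by 4 probe sets. The brightest, 1436771_x_at, stands for the gene in the gene-level test. It gave 11598, 17355, 18019, 17340 and 16427 in XKA livers. It gave 16557, 22021, 31072, 27455 and 18667 in KKAy model livers. It gave 13982, 19498, 12898, 14901 and 19602 in C57BL/6J livers. The model values spread widest and overlapped both other groups, and XKA array 1 lay far below the other XKA arrays. The model minus C57BL/6J change was 0.50 (SE 0.18, limma adjusted p = 0.0699). The call was gained without model array 1 (0.61, adjusted p = 0.0317) and without model array 5 (0.57, adjusted p = 0.045). Against model livers, XKA livers had a change of -0.50 (SE 0.18, unadjusted p = 0.0107, adjusted p = 0.373). The XKA and C57BL/6J means, 16148 ± 2606 and 16176 ± 3161 (SD, n = 5 each), differed by 0.00 on the log2 scale (95% interval -0.37 to 0.37).

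The other Pgd probe sets did not all behave alike. Probe set 1423706_a_at gave 3980, 6607, 6255, 4622 and 5152 in XKA livers, 9025, 8051, 8984, 10260 and 5620 in KKAy model livers and 4967, 4929, 3468, 4951 and 5243 in C57BL/6J livers. Every model array lay above every C57BL/6J array. In the fit over all probe sets its model minus C57BL/6J change was 0.82 (SE 0.18, limma adjusted p = 0.006) and its XKA minus model change was -0.65 (unadjusted p = 0.00177, adjusted p = 0.241). Probe set 1438627_x_at changed by 0.49 between model and C57BL/6J (adjusted p = 0.052), with 7157 ± 403 in XKA, 9531 ± 1545 in model and 6818 ± 1422 in C57BL/6J livers (SD, n = 5 each). Probe set 1437380_x_at changed by 0.10 (adjusted p = 0.835), with 13138 ± 3008 in XKA, 17635 ± 5216 in model and 16165 ± 3543 in C57BL/6J livers. In Affymetrix names _x_at marks a set with probes that may match other transcripts, and _a_at one shared by transcripts of a gene, so the 3 _x_at sets are less certain measures of Pgd. The difference between probe sets was not tested.

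**Figure D2:**
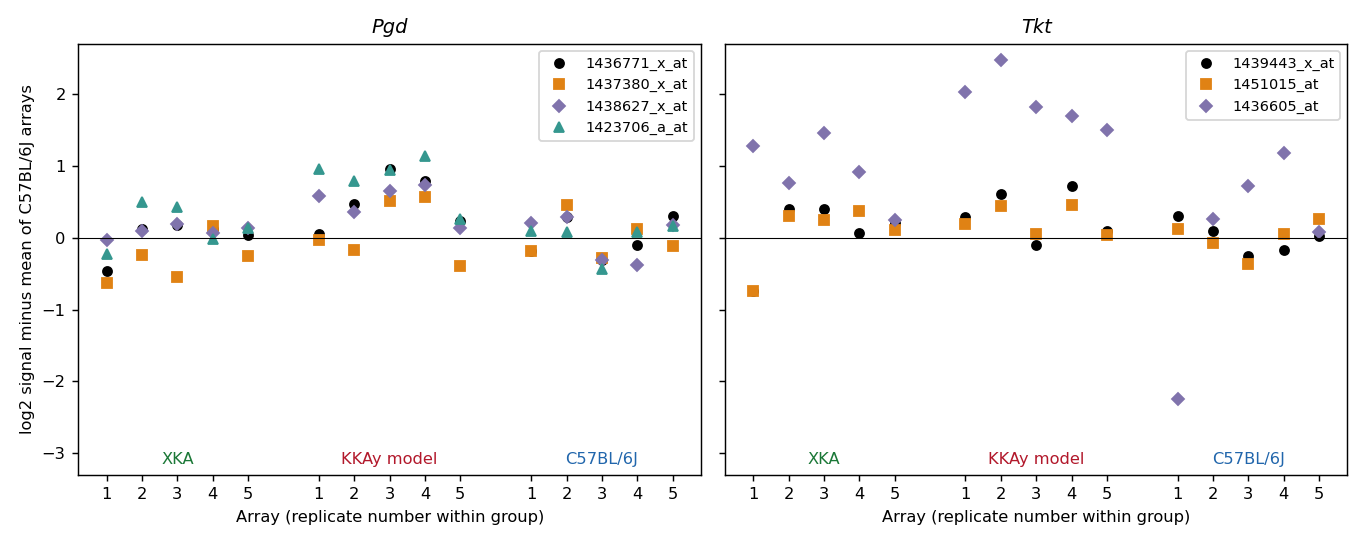
Log2 scaled signal of every probe set of Pgd (4) and Tkt (3) in each XKA, KKAy model and C57BL/6J array (n = 5 each), minus the mean of that probe set over the C57BL/6J arrays. For Pgd 1423706_a_at and Tkt 1436605_at every model array lies above every C57BL/6J array, and for the other 5 probe sets these groups overlap.

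Rpia codes for ribose-5-phosphate isomerase, which turns ribulose-5-phosphate into ribose-5-phosphate for nucleotide synthesis. Its signals were 3119, 3681, 5348, 4277 and 3040 in XKA livers. They were 3200, 5669, 3826, 4156 and 2553 in KKAy model livers. They were 5856, 4444, 3158, 4958 and 3821 in C57BL/6J livers. The 3 groups overlapped over most of their ranges. Rpia was the one measured member whose model estimate lay below that of C57BL/6J, at -0.22 (95% interval -0.69 to 0.26, limma adjusted p = 0.616). In XKA against model livers the change was 0.02 (-0.45 to 0.49, adjusted p = 0.988).

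Tkt codes for transketolase, the thiamine-dependent enzyme that moves 2-carbon units between sugars, and it had 3 probe sets. The brightest, 1439443_x_at, gave 88531, 194603, 194667, 154162 and 169440 in XKA livers. It gave 180940, 226037, 137640, 243201 and 156958 in KKAy model livers and 181925, 157989, 123049, 130912 and 149965 in C57BL/6J livers. All 3 groups overlapped, and XKA array 1 was the lowest of all 15. As an _x_at set, 1439443_x_at may also match other transcripts and is a less certain measure of Tkt. Model and C57BL/6J livers differed by 0.33 (95% interval -0.10 to 0.76, limma adjusted p = 0.356). Between XKA and model livers the change was -0.26 (-0.69 to 0.17, adjusted p = 0.775), and it was -0.06 without XKA array 1.

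Probe set 1451015_at of Tkt gave 27846 ± 7211 in XKA, 30589 ± 4343 in model and 26051 ± 4084 in C57BL/6J livers (SD, n = 5 each), with a model minus C57BL/6J change of 0.24 (limma adjusted p = 0.512). XKA array 1 was again its lowest, at 15463. The dim probe set 1436605_at behaved otherwise: it gave 801, 562, 906, 627 and 394 in XKA livers, 1346, 1840, 1168, 1070 and 934 in KKAy model livers and 70, 396, 546, 748 and 350 in C57BL/6J livers. Most of these values lie below the array median of 1000. Every model array lay above every array of the other groups. Its fitted model minus C57BL/6J difference was 1.90 (SE 0.52, adjusted p = 0.0246), and the XKA minus model difference was -0.97 (95% interval -2.05 to 0.11, adjusted p = 0.672). No detection call was used here, so that the probe set was not shown to be above background in C57BL/6J or XKA livers, and these differences are not sizes of a change in Tkt. When the log2 values of the 3 probe sets were averaged, Tkt passed the test between model and C57BL/6J (0.82, adjusted p = 0.00691). With the 2 brighter probe sets alone, chosen after seeing the data, it did not (0.28, adjusted p = 0.382).

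Taldo1 codes for transaldolase, which moves 3-carbon units and joins the pathway to fructose-6-phosphate and glyceraldehyde-3-phosphate. Its signals were 49302, 55994, 52049, 48549 and 59409 in XKA livers. They were 77549, 74452, 76476, 98401 and 55119 in KKAy model livers. They were 49512, 54557, 32899, 36859 and 41348 in C57BL/6J livers. Every model array lay above every C57BL/6J array, and the 5 XKA arrays lay in a narrow band that overlapped the lowest model array and the 2 highest C57BL/6J arrays. The means were 53060 ± 4594 in XKA, 76399 ± 15346 in model and 43035 ± 8922 in C57BL/6J livers (SD, n = 5 each).

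The model minus C57BL/6J change of Taldo1 was 0.83 (SE 0.15, limma unadjusted p = 2.86e-05 and adjusted p = 0.001 across all genes). The call held under each alternative run, with adjusted p between 0.00025 and 0.0125, and without each array in turn, between 0.000212 and 0.00438. The size depended on the scaling: the change was 0.64 with the values as deposited and also with quantile normalisation. The XKA minus model change was -0.51 (95% interval -0.82 to -0.19, unadjusted p = 0.00354, adjusted p = 0.245). The XKA minus C57BL/6J change was 0.32 (95% interval 0.00 to 0.64, adjusted p = 0.249).

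Read against the whole array, 2 of 6 measured members were called between model and C57BL/6J livers, both higher, where 13.0% of all genes were called in either direction and 10.6% were called higher. All 6 had group means above the array median. Among the 12485 genes with a signal above 1000 in at least 5 arrays, the same 2 members were called, and 20.6% of genes. Over all genes, the groups did not overlap, with all model arrays above, for the same 2 members and for 8.19% of genes. Between XKA and model livers 0 of 6 were called, with 0.176% of genes called, and between XKA and C57BL/6J livers 0 of 6, with 7.48%. At an unadjusted limma p under 0.05 the counts were 3 members between XKA and model (H6pd, Pgd and Taldo1, with 8.61% of genes), 4 between model and C57BL/6J (25.2% of genes) and 1 between XKA and C57BL/6J (19.4% of genes). In the Dunnett test 2 members passed between XKA and model before adjustment over genes, where 5.19% of genes passed, and 0 after it, where 0 of all genes passed.

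By probe set, 4 of 11 were called between model and C57BL/6J livers (8.45% of all probe sets): those of H6pd and Taldo1, Pgd 1423706_a_at and the dim Tkt 1436605_at, without which the count was 3. None of the 11 was called between XKA and model livers (0.0799% of all, limma) or between XKA and C57BL/6J livers (4.78%), while 5 had an unadjusted p under 0.05 between XKA and model livers (8.06% of all) and 1 between XKA and C57BL/6J livers (15.8% of all). Of the 11 probe sets, 7 belong to Pgd and Tkt.

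The median change of the 6 members was -0.31 for XKA minus model, where that of all genes was -0.06. It was 0.41 for model minus C57BL/6J, where that of all genes was 0.15, and 0.04 for XKA minus C57BL/6J, where that of all genes was 0.10. The scaling moved the whole array: for model minus C57BL/6J, with no scaling, the all-gene median was -0.04 and the member median 0.22, and quantile normalisation gave 0.04 and 0.23. For XKA minus C57BL/6J the member median turned to -0.12 with no scaling (all genes -0.06) and to -0.09 with quantile normalisation (all genes 0.02), and 2 of 6 members then had a positive estimate, against 5 of 6 after scaling. Calls over all genes were split into 1924 higher and 442 lower after scaling, 1137 and 1027 as deposited and 1602 and 1102 after quantile normalisation.

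**Figure D3:**
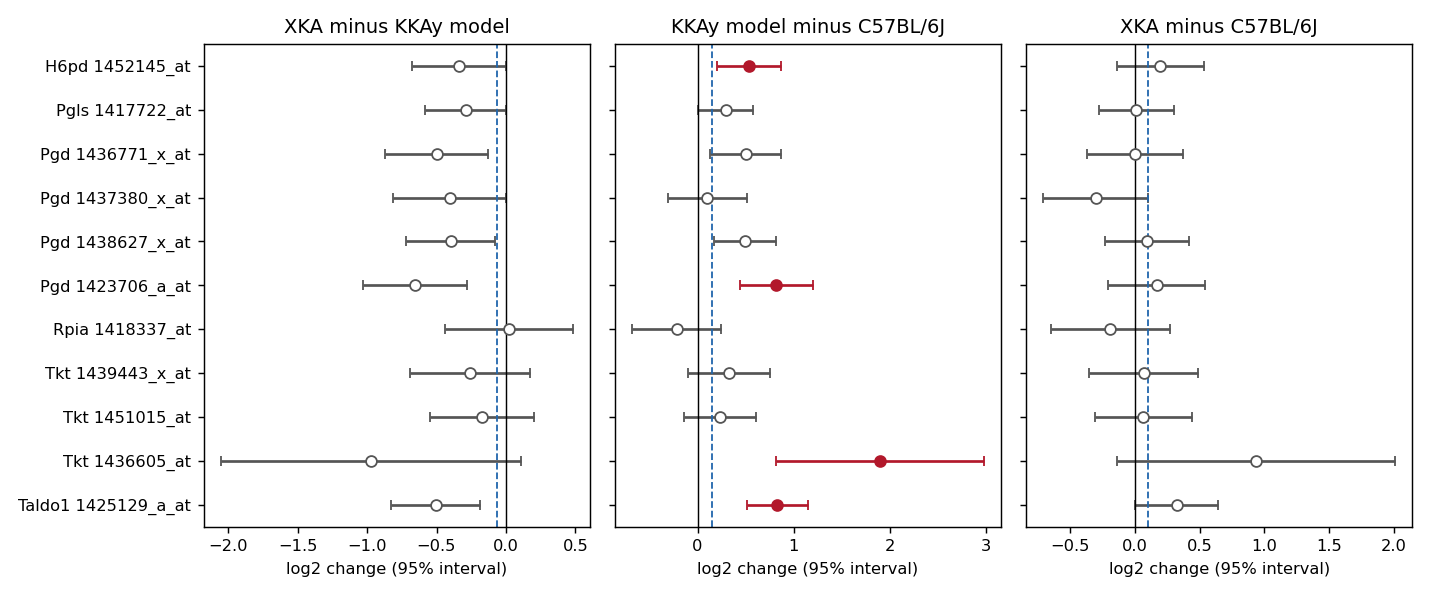
Log2 change of each of the 11 member probe sets with its 95% interval from limma, for XKA minus KKAy model, KKAy model minus C57BL/6J and XKA minus C57BL/6J; filled points have an adjusted p under 0.05 over all probe sets, and the dashed line is the median of all genes. The 4 filled points, Taldo1 (0.83), H6pd (0.53), Pgd 1423706_a_at (0.82) and the dim Tkt 1436605_at (1.90), which was not shown to be above background, are all for model minus C57BL/6J.

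The study's reverse rate was computed for each member as the model mean minus the XKA mean, divided by the model mean minus the C57BL/6J mean, so that 0 stands for the model level and 1 for the C57BL/6J level. It uses the model mean on both sides of the ratio and is given with no test. Only H6pd and Taldo1 had a called denominator: their rates were 0.636 and 0.7. Leaving out each array in turn gave 0.444 (without XKA array 5) to 0.841 (without XKA array 1) for H6pd and 0.64 to 0.757 for Taldo1. Over the 1924 genes called higher in model than in C57BL/6J livers the median rate was 0.344, with quartiles of 0.144 and 0.527. For the members with no called denominator the rates were 0.983 for Pgls, 1 for Pgd, 0.714 for Tkt and 0.0221 for Rpia. Those of Pgls (2.3), Pgd (1.41) and Tkt (1.25) were larger in the values as deposited. Without XKA array 1 the Tkt rate was 0.267, and the Rpia rate was -1.36 without model array 5 and 0.453 without model array 2. All these rates are of the brightest probe set of a gene. For Pgd the others gave 0.834 (1423706_a_at), 0.875 (1438627_x_at) and 3.06 (1437380_x_at). Leaving out single arrays moved the last from -85.4 to 16.1. Tkt 1451015_at gave 0.604, from -0.0779 to 0.912.

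Differences between members within an array do not move with its scaling. The log2 signal of Tkt minus that of Taldo1 was 1.54 ± 0.42 in XKA livers, 1.30 ± 0.29 in KKAy model livers and 1.80 ± 0.15 in C57BL/6J livers (SD, n = 5 each). It was lower by 0.50 in model than in C57BL/6J livers (exact two-sided permutation p = 0.0159, Benjamini-Hochberg adjusted p = 0.0954 over 6 tests), where the smallest p the design allows is 0.00794. When all probe sets of Tkt were averaged this difference was -0.01 (exact permutation p = 0.944). The XKA minus model difference was 0.25 (exact permutation p = 0.325), and 0.42 without XKA array 1 (exact permutation p = 0.0397, not adjusted). H6pd minus Pgd, a pair added after the values were seen, was 2.54 ± 0.55 in XKA, 2.38 ± 0.25 in model and 2.35 ± 0.28 in C57BL/6J livers, with exact permutation p-values of 0.571 or more.

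The members varied together within groups to unequal degrees. After the group means were taken off, Pearson's r over the 15 arrays was 0.69 for Pgls and Rpia, 0.67 for Pgd and Pgls and 0.62 for Pgls and Taldo1, and -0.25 for H6pd and Tkt, as a description of points that share arrays and scaling. Taldo1 had the lowest p of the members between model and C57BL/6J, and the genes most like it over the 15 arrays of 18192 others were Slc49a4 (r = 0.958), Tars2 (0.952), Lect2 (0.939), Hsd17b12 (0.935) and Nars2 (0.931). Tars2 and Nars2 code for mitochondrial aminoacyl-tRNA synthetases, Lect2 for a protein secreted by the liver and Hsd17b12 for an enzyme of fatty acid elongation. The other members ranked far lower: Pgls 1310 (0.726), Pgd 1638 (0.7), H6pd 2045 (0.669), Tkt 2847 (0.603) and Rpia 11780 (0.023). These correlations include the differences between groups.

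Of 17 further measured genes of pentose and ribose phosphate metabolism, 1 passed the test between model and C57BL/6J livers (limma): Prps2, a phosphoribosyl pyrophosphate synthetase that uses ribose-5-phosphate, had 14736 ± 2766 in XKA, 17246 ± 4785 in model and 8303 ± 1305 in C57BL/6J livers (SD, n = 5 each), a change of 1.02 (adjusted p = 0.0006925). It was also higher in XKA than in C57BL/6J livers (0.82, adjusted p = 0.006919), and none of the 17 passed between XKA and model. Rpe, the ribulose-phosphate epimerase that completes the pathway, had 11167 ± 1536, 12760 ± 1347 and 11758 ± 1143 in XKA, model and C57BL/6J livers and was not called. Tigar, a phosphatase that favours entry of glucose into the pathway, changed by 0.60 between model and C57BL/6J (adjusted p = 0.08776). The median of the 17 was 0.26 for model minus C57BL/6J, beside 0.15 over all genes.

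Among 9 other sources of NADPH, 2 rose in model against C57BL/6J livers and none passed between XKA and model livers (limma). Me1, cytosolic malic enzyme, had 66485 ± 17182 in XKA, 84412 ± 15579 in model and 34806 ± 10746 in C57BL/6J livers (model minus C57BL/6J 1.31, adjusted p = 0.0002478). Nnt, the mitochondrial transhydrogenase, had 115805 ± 17512, 106013 ± 15963 and 37787 ± 5233 in XKA, model and C57BL/6J livers (1.49, adjusted p = 4.678e-07). Many C57BL/6J lines carry a deletion in Nnt, and strain and diet cannot be told apart here. Mthfd1 and Aldh1l1, enzymes of folate metabolism, were not called after scaling (-0.73, adjusted p = 0.0532, and -0.31, adjusted p = 0.352), but both were called lower in model livers with the values as deposited (-0.92, adjusted p = 0.00654, and -0.50, adjusted p = 0.0303) and with quantile normalisation (-0.91, adjusted p = 0.00308, and -0.48, adjusted p = 0.0156). Idh1 and Idh2, the NADP-dependent isocitrate dehydrogenases, changed by 0.35 and 0.16 between model and C57BL/6J livers and were not called. Both Me1 and Nnt were also higher in XKA than in C57BL/6J livers.

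NADPH is spent in lipid synthesis and in antioxidant defence. Of 8 measured genes of lipid synthesis, which include steps that do not themselves use NADPH, 3 fell in model against C57BL/6J livers and none rose (limma): Sqle, squalene epoxidase, with a change of -3.78 (adjusted p = 1.788e-07), Acacb, the mitochondrial acetyl-CoA carboxylase, with -3.64 (adjusted p = 0.0004489) and Dhcr7, a sterol reductase, with -0.82 (adjusted p = 0.01708). Sqle had 785 ± 275 in model and 10710 ± 4202 in C57BL/6J livers, and Acacb had 593 ± 914 and 3979 ± 1514. Both model means lay below the array median, so that -3.78 and -3.64 are not exact sizes. Fasn, fatty acid synthase, had 9462 ± 2233 in XKA, 11735 ± 3807 in model and 12341 ± 4978 in C57BL/6J livers and was not called. Of 7 measured antioxidant users, Gsr, glutathione reductase, was higher in model livers (0.54, adjusted p = 0.03368), a call lost as deposited (0.35, adjusted p = 0.122), and Cbr1, a carbonyl reductase, was lower (-0.81, adjusted p = 0.02702). None of these lists had a call between XKA and model livers.

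Of 9 genes for NRF2, the regulator of antioxidant genes, with its repressor and marker targets, 3 rose in model against C57BL/6J livers and none fell (limma). They were Gclc (1.14, adjusted p = 0.0002945) and Gclm (0.64, adjusted p = 0.005571), the subunits of the enzyme that starts glutathione synthesis, and Srxn1, sulfiredoxin (0.62, adjusted p = 0.006119). Gclc had 154273 ± 33770 in XKA, 237774 ± 32056 in model and 109118 ± 25472 in C57BL/6J livers. The median of the 9 was 0.48 for model minus C57BL/6J and -0.19 for XKA minus model, where none of the 9 passed. Nqo1, a widely used target, changed by 0.03 between model and C57BL/6J livers and was not called.

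Of 13 measured regulators and targets of carbohydrate response and lipogenesis, 5 rose and 1 fell in model against C57BL/6J livers, and none passed between XKA and model livers (limma). Srebf1, the lipogenic transcription factor (1.99), Thrsp, a lipogenic protein (1.93), and Fgf21, a liver hormone (1.80), had the largest increases, and Txnip, a thioredoxin-binding protein, fell by 1.38. Srebf1, Thrsp and Txnip were also called in XKA against C57BL/6J livers after each scaling. Of 5 partners of H6pd in the endoplasmic reticulum and glucocorticoid response, Nr3c1, the glucocorticoid receptor, was called higher in model than in C57BL/6J livers (0.40, adjusted p = 0.02882), a call lost as deposited (0.21, adjusted p = 0.132) and with quantile normalisation (0.20, adjusted p = 0.0753). Hsd11b1, the dehydrogenase that H6pd supplies, had 418086 ± 66434 in XKA, 417940 ± 56032 in model and 314868 ± 34378 in C57BL/6J livers (model minus C57BL/6J 0.41, adjusted p = 0.1036).

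**Figure D4:**
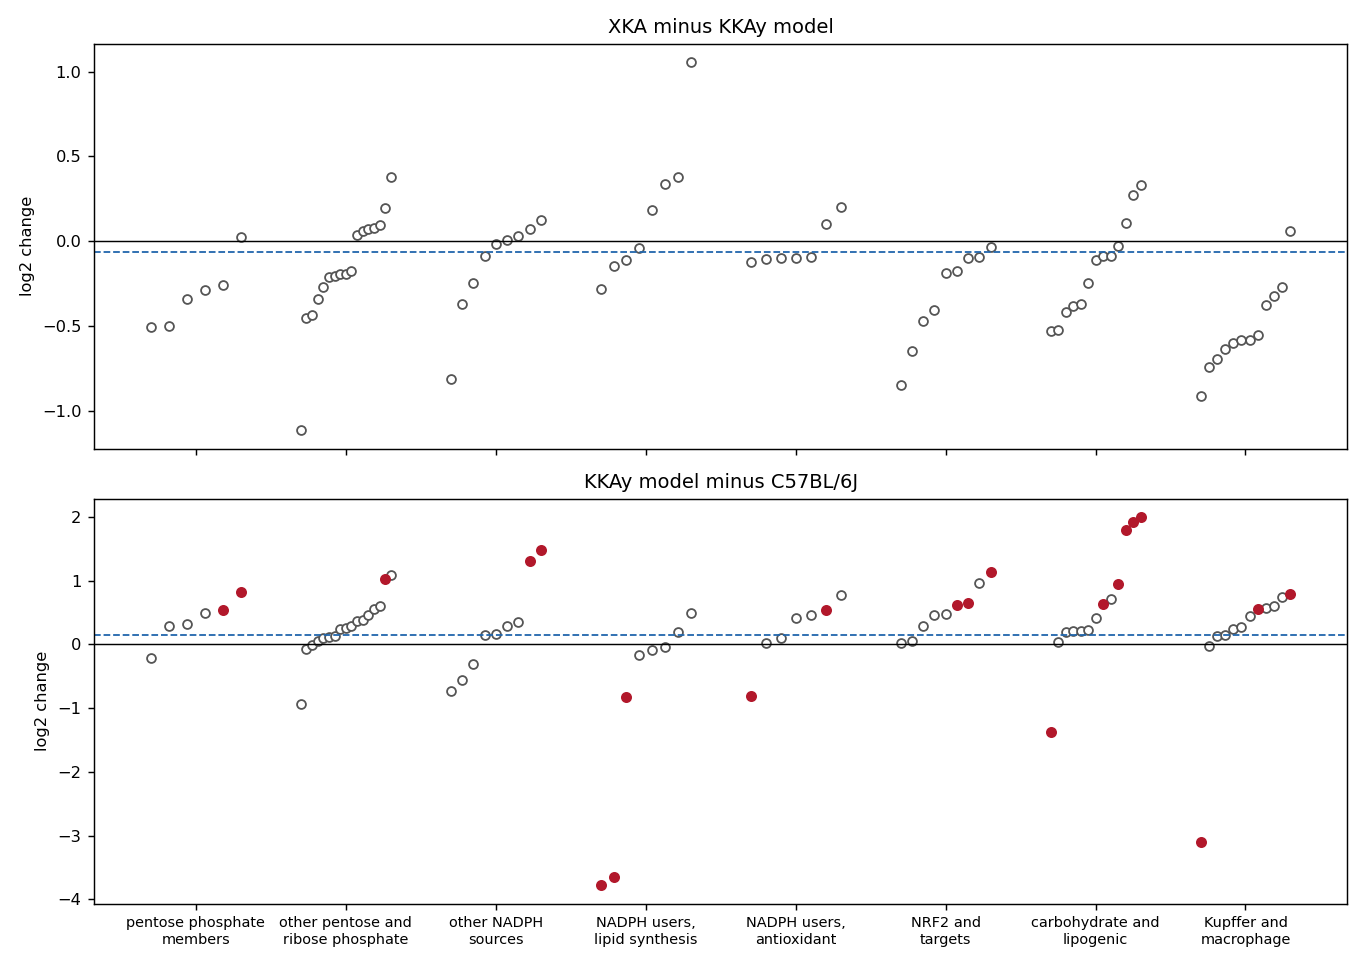
Log2 change of each measured gene of the pathway, 6 related lists and the Kupffer cell and macrophage markers, for XKA minus KKAy model and KKAy model minus C57BL/6J; filled points have a limma adjusted p under 0.05 over all genes, and the dashed line is the median of all genes. The members have 2 filled points for model minus C57BL/6J and none for XKA minus model.

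Whole liver was measured, so that fewer cells of a type and less RNA per cell cannot be told apart. The 10 measured hepatocyte markers had group means above the array median in every group, as the label of liver implies. None was called between XKA and model livers, and Apob (0.57, adjusted p = 0.0177) and Fga (0.63, adjusted p = 0.0334) were called higher in model than in C57BL/6J livers (limma). In that comparison 2 others, Ass1 and Apoa1, were called lower after quantile normalisation. With the values as deposited Ass1 was also called lower (-0.83, limma adjusted p = 0.0145), and Fga was not called. Markers of other cells are given as summed scaled signals. The summed signal of 12 Kupffer cell and macrophage markers was 165933 to 294174 in XKA, 210479 to 514046 in model and 174901 to 315551 in C57BL/6J livers, and 11 of the 12 had a negative XKA minus model estimate (median -0.58, 0 called, limma). Between model and C57BL/6J livers, the comparison with the member calls, Lyz2 (0.80, adjusted p = 0.0147) and C1qc (0.56, adjusted p = 0.0478, lost under both other scalings) were called higher and Marco lower (-3.10, adjusted p = 0.0109). Marco had 539 ± 489 in model and 3434 ± 1493 in C57BL/6J livers. Its model mean lay below the array median, so that -3.10 is not an exact size. The Kupffer cell marker Clec4f was not called and had 15411 ± 6954, 28746 ± 12491 and 17987 ± 3762 in XKA, model and C57BL/6J livers (SD, n = 5 each). Summed neutrophil markers (8) were 7921 to 26428 in XKA, 14882 to 33507 in model and 8043 to 12869 in C57BL/6J livers. Only S100a8 was called, higher in model than in C57BL/6J livers (2.16, limma adjusted p = 0.00111). It made up much of that sum, with 6554 ± 5771 in XKA, 12129 ± 5157 in model and 2661 ± 886 in C57BL/6J livers. For model minus C57BL/6J, 7 of the 8 estimates were positive, among them S100a9 (0.44, adjusted p = 0.505) and Camp (0.02), and Ltf was negative (-0.02). Summed lymphocyte markers (9) were 10632 to 14463 in XKA, 14347 to 27544 in model and 9753 to 16634 in C57BL/6J livers. None of the 9 was called in any comparison (limma). Much of that sum was Ptprc, with 6893 ± 1692 in XKA, 11319 ± 4751 in model and 6993 ± 1574 in C57BL/6J livers. For model minus C57BL/6J, 7 of the 9 estimates were positive, while Cd3d (-1.02) and Cd79a (-0.89) were negative. Summed adipocyte markers (6) were 20670 to 39567 in XKA, 54810 to 118818 in model and 32733 to 46628 in C57BL/6J livers, with Adipoq and Lep group means below the array median in every group. Much of that sum was Lpl, lipoprotein lipase, with 16074 ± 7078 in XKA, 44255 ± 13380 in model and 29425 ± 4028 in C57BL/6J livers, the 1 gene of all the lists called between XKA and model livers (-1.54, adjusted p = 0.0297). Cidea (4.06, limma adjusted p = 0.0305) and Fabp4 (0.74, adjusted p = 0.043) were called higher in model than in C57BL/6J livers. Cidea was not called with the values as deposited, and Fabp4 under neither other scaling. Cidea was uneven, with 15375 ± 22310 in model and 327 ± 188, below the array median, in C57BL/6J livers. Of the 6, 4 had a positive model minus C57BL/6J estimate, while Adipoq (-0.35) and Retn (-0.59) were negative. For XKA minus model, Retn was the 1 positive estimate (1.48, not called). Of 12 stellate cell and endothelial markers, Col3a1 (not under the other scalings), Acta2, Stab2 and Vwf were called higher in model than in C57BL/6J livers. Of the 12, 7 had a positive estimate in that comparison, and Des had the lowest estimate (-1.18, not called). Cdh5 was called lower with the values as deposited (-0.46, limma adjusted p = 0.0291). The summed signal of the 12 was 48782 to 69924 in XKA, 61323 to 91184 in model and 49424 to 68305 in C57BL/6J livers. Of 5 erythroid markers, Alas2 was called higher in model than in C57BL/6J livers (1.88). Only 2 of the 5 had a positive estimate there, and their median was -0.38. The erythroid sums were 41923 to 75333 in XKA, 46790 to 82228 in model and 32226 to 63558 in C57BL/6J livers. Alas2 alone had 35004 ± 6998 in model and 9677 ± 2985 in C57BL/6J livers. No cholangiocyte marker of 5 was called in any comparison. The part of these cells in the member results was not tested.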

How the data were processed

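Total RNA was extracted from livers, labelled with a 3' in vitro transcription kit and hybridised to Affymetrix whole-genome mouse arrays. The authors deposited 1 linear signal intensity per probe set and array; how probes were summarised into them is not given in these sources. Their methods name median scaling to 1000, but the deposited array medians were 127 to 182, so each array was scaled here to a median of 1000 and log2 transformed. No background correction was added. Of 45101 probe sets, 64 controls were left out; 34958 had 1 gene symbol, 932 several and 9211 none in the annotation used, and 34741 were matched to current symbols through Entrez IDs. For a gene with several probe sets, the brightest on average was used. The main test was limma (version 3.58.1, R 4.3.3) with an intensity trend over all 15 arrays, with Benjamini-Hochberg adjustment at 0.05. The limma fit was tested on simulated data. Within-array differences were tested by exact permutation, and motifs were searched in Python 3.11.15. Figures were drawn with matplotlib 3.10.9.

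Groups came from the sample titles. Genes named are the 7 members, at most 4 called genes of each other list by size of change, the 5 genes most like the member with the lowest p, and any gene needed beside a member result. Members and lists were chosen with earlier results of these data known. G6pdx was not analysed here, so both planned differences with it were not run. Alternatives were the values as deposited, quantile normalisation, the mean of probe sets, a filter on dim genes, no trend, a replicate block, array weights, only both groups' arrays, Dunnett comparisons, and leaving out arrays. Reading Tkt by its 2 brighter probe sets was added after seeing the data. The number of arrays limits the precision.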

Additional observations from a re-analysis of the deposited data

Results flagged for a closer look

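Pgd in XKA livers had 1 array apart from the other 4. XKA array 1 gave a scaled signal of 11598, and on the log2 scale its gap to the nearest array was 0.79 of the whole XKA range, above the critical value of 0.71 in Dixon's test for 5 samples. This was 1 of 18 gene and group combinations tested, and chance flags about 1 in 20. Without that array the XKA minus model change of Pgd was -0.38 (limma adjusted p = 0.47), against -0.50 (adjusted p = 0.373) with it. The same array gave the lowest signal of Tkt in any group, where the gap was 0.704 of the XKA range on the log2 scale.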

How the results depend on the processing

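The count of members called between model and C57BL/6J livers was 2 (H6pd and Taldo1). It was 1 (Taldo1) with the values as deposited, with quantile normalisation, with no intensity trend, with the adjusted Dunnett test and without both model array 3 and XKA array 1; H6pd then had 0.34, 0.34, 0.53, 0.53 and 0.45 with adjusted p of 0.111, 0.106, 0.0765, 0.118 and 0.0573. It was 3 with the mean of probe sets (Tkt added) and with the unadjusted Dunnett test (Pgd added). Leaving out each array gave 1 to 4 (4 without model array 5: H6pd, Pgls, Pgd and Taldo1). The share of all genes called in that comparison moved as well, from 13.0% in the main test. It was 11.9% as deposited, 14.9% after quantile normalisation, 10.1% with no trend and 10.6% without both arrays. With the mean of probe sets it was 8.69%, and 7.58% and 19.6% with the adjusted and unadjusted Dunnett test. Without each array it was 9.21% to 15.3%, the highest without model array 5. The XKA minus model count was 0, and 2 with the unadjusted Dunnett test (Pgd and Taldo1, 0.0468 and 0.0154); leaving out each array gave 0 to 0. The XKA minus C57BL/6J count was 0 throughout. With Tkt read by its 2 brighter probe sets, a setting chosen after seeing the data, the counts were 2, 0 and 0. The cause of these changes was not tested.

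Signs turned only in estimates that passed no test: XKA minus C57BL/6J for Pgls (-0.15 as deposited, -0.14 quantile), Pgd (-0.15 and -0.14, and -0.01 with the mean of probe sets) and Tkt (-0.09 and -0.04), Tkt minus Taldo1 in that comparison (0.03 with the mean of probe sets), and H6pd minus Pgd without both arrays (-0.10 for XKA minus model, -0.03 for XKA minus C57BL/6J). Leaving out each array gave -0.11 to 0.17 for Rpia in XKA minus model, -0.05 to 0.07 for Pgls, -0.07 to 0.12 for Pgd and -0.02 to 0.27 for Tkt in XKA minus C57BL/6J, and for H6pd minus Pgd -0.06 to 0.29, -0.07 to 0.13 and -0.03 to 0.32 in XKA minus model, model minus C57BL/6J and XKA minus C57BL/6J. With the replicate number as a block the counts of members called stayed at 2, 0 and 0 for model minus C57BL/6J, XKA minus model and XKA minus C57BL/6J. The numbers are not known to pair mice: the 15 same-numbered pairs had correlations of -0.04 to 0.09, and 1 array correlated best with its own number. Over all genes the XKA minus model count was 32, and 63 as deposited, 113 with quantile normalisation, 6 with the mean of probe sets, 4 with no trend, 52 with array weights, 19 with both groups alone and 0 with the adjusted Dunnett test (944 unadjusted), and 11 to 54 without each array. The model minus C57BL/6J count was 2366, and 1379 with the adjusted and 3563 with the unadjusted Dunnett test. The XKA minus C57BL/6J count was 1361, and 828 with the mean of probe sets, 892 with no trend and 711 and 2663 with the adjusted and unadjusted Dunnett test.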
